A study of Mus musculus with 2 samples.

Results

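The mRNAs of 54 splicing factors and heterogeneous nuclear ribonucleoproteins (hnRNPs) were followed in single mouse muscle stem cells. They are the protein-coding genes whose symbols begin with Srsf, Hnrnp, Snrp, Sf3a or Sf3b, or U2af. They were taken by symbol from the 21216 gene identifiers of the count tables. The set itself was chosen with earlier results of these data known. The 54 genes comprise 11 SR proteins, 19 hnRNPs, 12 core proteins of the small nuclear ribonucleoproteins (snRNPs), 9 subunits of splicing factor 3 (SF3) and 3 genes of the U2 auxiliary factor (U2AF). Of these, 42 had a mean of at least 50 CPM (the usual depth-scaled unit, a gene's counts relative to all gene counts of the pool) over the 4 conditions, out of 3964 such genes in all, and are called measured here. The measured members were 9 SR proteins, 18 hnRNPs, 7 core snRNP proteins, 6 SF3 subunits and 2 U2AF genes. At the edge of that limit stood Hnrnpul2, at 56.4 CPM and measured, and Srsf10, at 49.6 CPM and not measured.

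Muscle stem cells, which lie along the fibres of skeletal muscle and rebuild them after injury, were placed singly in plate wells by FACS. Their polyadenylated RNA was barcoded by well with a modified CEL-Seq2 protocol, which reads the 3′ end of each transcript. The first plate carried cells taken directly from muscle, labelled quiescent (freshly isolated in what follows), and a culture with glucose at 25 mM (high glucose). The second carried a culture with glucose at 5 mM (low glucose) and another with galactose at 10 mM. Each culture lasted 96 h in DMEM with 1 mM pyruvate, fetal bovine and horse serum, chick embryo extract, bFGF and antibiotics. The freshly isolated cells saw no medium, so culture, time and medium cannot be told apart between them and any cultured group. The labels give no genotype, strain, sex, age or number of animals, and no sorting markers.

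Introns are removed from pre-mRNA by the spliceosome, which is built on each intron from the U1, U2, U4/U6 and U5 snRNPs. The Snrp genes encode the Sm ring that all these particles share, except U6, and the proteins specific to U1 and U2. U2AF binds the end of the intron and brings in the U2 snRNP, whose SF3A and SF3B complexes hold the branch point. SR proteins bind exons and mostly promote their use. The hnRNPs coat nascent transcripts and in many cases oppose it. Many SR protein and hnRNP genes limit their own levels through exons whose inclusion sends the mRNA to decay.

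Each plate is 1 sample of the series and holds the wells of 2 conditions. No condition had a replicate, so no test between conditions was made and no p-value is given. Counts were summed over 102 freshly isolated, 113 high glucose, 120 low glucose and 121 galactose cells, which gave pools of 284109, 887611, 1734279 and 2035682 gene counts. A single count was thus worth 3.52, 1.13, 0.577 and 0.491 CPM. Ratios of pools are given with exact 95% intervals that cover counting error only. Members with a ratio of at least 1.5 either way are called higher or lower. The measured limit is a mean that rests mostly on the cultures, so a gene can pass it through its level in culture. This favours calls of higher over freshly isolated cells, for the members, the further lists and all measured genes. The wells of each condition filled 6 rows of a plate, and the range over pools of single rows shows the spread within a plate. Freshly isolated and low glucose wells filled rows A to F, and high glucose and galactose wells rows G to L. Position on the plate and condition thus cannot be told apart, also where row pools do not overlap. Rows are a technical split and not biological replicates.

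The pools differed in RNA content and in their other genes. Gene counts per spike-in count, where spike-ins are synthetic RNAs added to the wells, were 19.6 in freshly isolated cells and 50.4 to 60.2 in the 3 cultures. Mitochondrial transcripts made up 3.48% of counts in the freshly isolated pool and 1.51% to 1.92% in the cultures. The early stress genes Hspa1a, Hspa1b, Fos and Jun together reached 10327 CPM in the freshly isolated pool against 1001 to 1641 CPM in culture. All 10 muscle stem cell markers were detected in every pool, with summed levels of 6205, 1950, 2078 and 2102 CPM in the order freshly isolated, high glucose, low glucose and galactose. Fibro-adipogenic markers (4 of 7 found) summed to 1091 CPM in the freshly isolated pool and to 135, 39.2 and 31.4 CPM in the cultures, with Dcn or Ly6a or both at 0 in every pool. Smooth muscle and pericyte markers (7 of 7 found) summed to 616, 230, 73.8 and 62.4 CPM, and endothelial markers (7 of 7 found) to 106, 45.1, 6.34 and 4.42 CPM. The part of these differences in the results that follow was not tested. Without wells that held 3 or more markers of another cell type, high glucose against freshly isolated cells gave 11 members called higher and 5 lower, against 10 and 4 with them.

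The members as a whole took 1.54% of gene counts in freshly isolated cells, 1.42% with high glucose, 1.49% with low glucose and 1.57% with galactose. Within this share the class sums differed in direction. Beside the counts of calls that follow, 38.0% of all measured genes were called higher in high glucose than in freshly isolated cells, and 16.1% lower. In high glucose the summed level of the SR proteins was 0.788 times that of freshly isolated cells by total counts, with 0 of 9 measured members called higher and 1 lower. The core snRNP sum was 1.71 times, with 5 of 7 called higher and 0 lower, and the hnRNP sum was 0.922 times, with 2 of 18 called higher and 2 lower. Relative to the spike-ins these sums were 2.42, 5.24 and 2.83 times, and all 42 measured members were higher in high glucose, by 1.38 times for Srsf5 to 12.3 times for Sf3b6. That scale raises the ratios of all genes by the same factor, so this is not particular to the members. The plot of levels shows each measured member in the 4 pools.

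**Figure D1:**
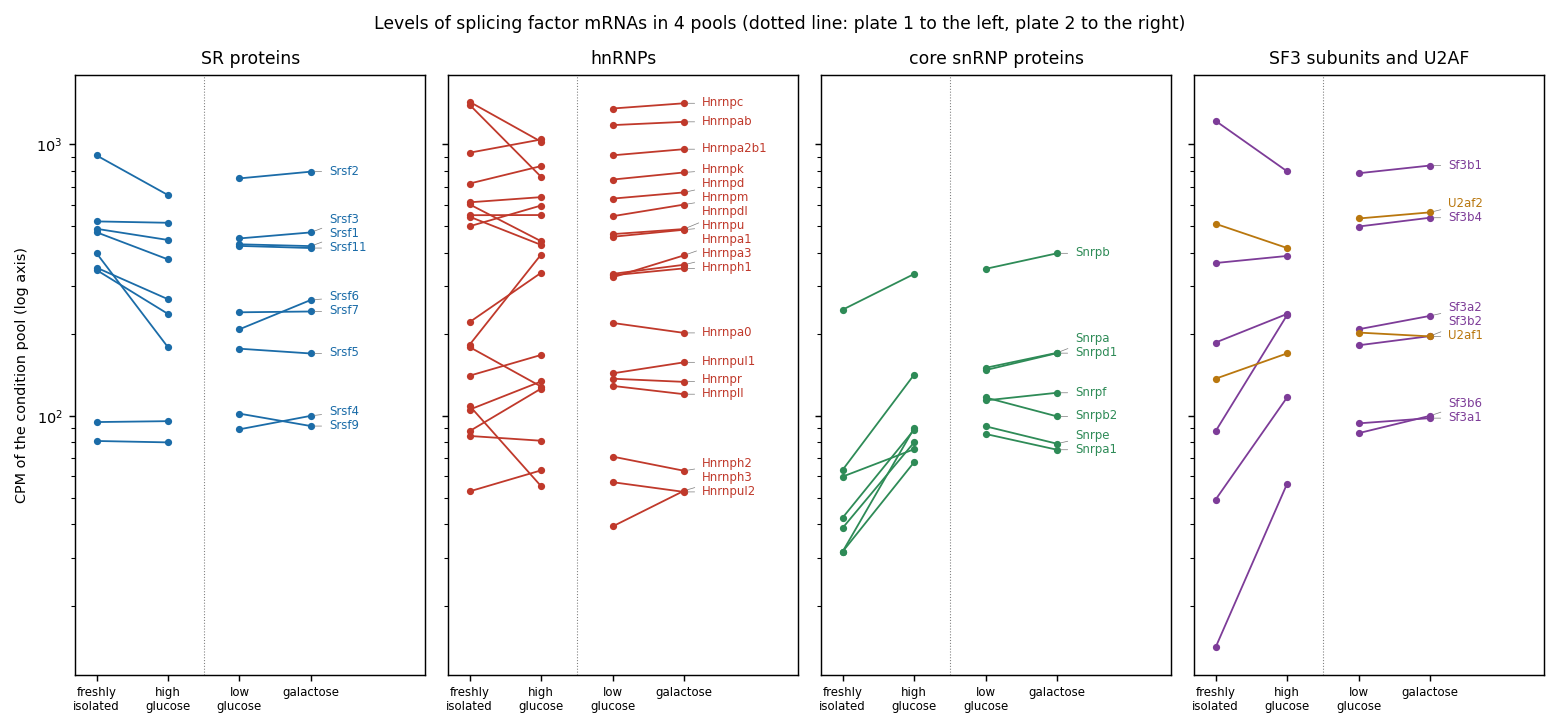
Level of each measured splicing factor mRNA (CPM of the condition pool, log axis) in freshly isolated cells, high glucose, low glucose and galactose, with lines joining pools of the same plate; 1 point is 1 gene in 1 pool. All 7 core snRNP proteins lie higher in high glucose than in freshly isolated cells and 8 of 9 SR proteins lie lower, in CPM, while the 2 pools of plate 2 lie close together; per spike-in count every member lies higher in high glucose.

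The question of the first comparison is how cells in high glucose culture differ from freshly isolated ones. In it 10 of the 42 measured members were higher and 4 were lower in high glucose, and 28 were neither. Over all 3964 measured genes, 38.0% were called higher and 16.1% lower, against 23.8% and 9.52% of the members. The median log2 ratio (with 1 CPM added to each pool) was 0.12 for the members and 0.33 for all measured genes. The latter depended on the scaling: the median of all genes was 0.08 with TMM factors, 0.04 with median-of-ratios factors and 1.92 per spike-in count. With the TMM and the median-of-ratios factors the split of the members was 9 higher and 12 lower, and per spike-in count it was 41 higher and 0 lower. Each of these scalings moves the ratios of all genes by 1 common factor. The share of all genes called under them was not counted, so these splits are no result about the members. By the stricter rule that no row pool of one condition reaches into the range of the other, 2 members were higher (Snrpa and Sf3a1) and 4 were lower (Srsf5, Hnrnpa2b1, Hnrnph1 and Sf3b1), where 12.2% and 7.47% of all measured genes met it.

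**Figure D2:**
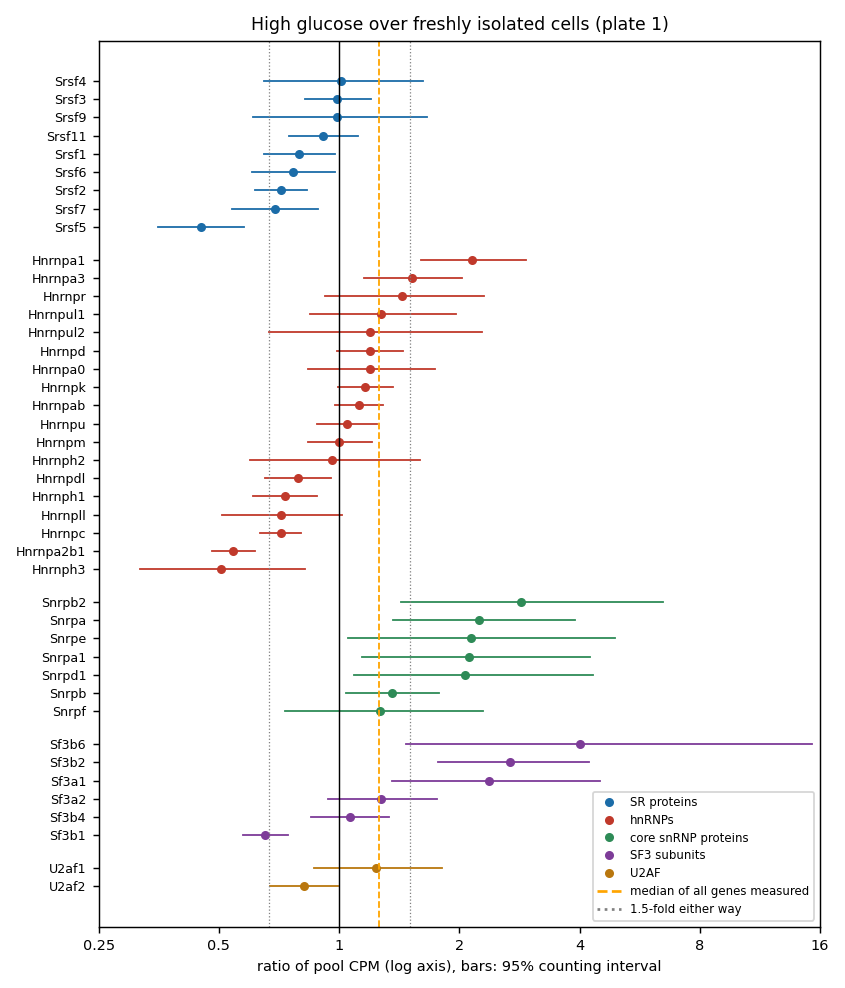
Ratio of pool CPM in high glucose over freshly isolated cells (log axis) for the 42 measured members, with bars for the exact 95% counting interval; the dashed line is the median of all measured genes and dotted lines mark 1.5-fold. The core snRNP proteins lie at 1.26 to 2.85 and the SR proteins at 0.450 to 1.01; per spike-in count all lie above 1.

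The sequence just before the transcription start is shown for 6 members, chosen because they carry the comparison: the 5 members that were called and whose row pools did not overlap, and Hnrnpa1, the hnRNP with the highest ratio. Each line gives the 100 bases before the first start that RefSeq lists on GRCm38.p6, 5′ to 3′ on the gene's strand. Capitals mark matches to 7 motifs searched on both strands: the E-box CACGTG, the CCAAT box, the ETS core CCGGAAG, the GC box GGGCGG, the cAMP response element TGACGTCA, the NRF1 motif and the TATA box TATAAA. Overlapping matches run together.
Srsf5, chr12:80945399-80945498, plus strand: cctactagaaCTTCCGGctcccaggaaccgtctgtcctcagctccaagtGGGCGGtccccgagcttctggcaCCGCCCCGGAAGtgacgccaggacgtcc
Hnrnpa2b1, chr6:51469895-51469994, minus strand: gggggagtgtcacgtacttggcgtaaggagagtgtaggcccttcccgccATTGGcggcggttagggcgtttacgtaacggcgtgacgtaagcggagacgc
Hnrnpa1, chr15:103240297-103240396, plus strand: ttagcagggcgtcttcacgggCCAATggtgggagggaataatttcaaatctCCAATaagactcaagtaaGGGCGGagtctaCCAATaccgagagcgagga
Snrpa, chr7:27196272-27196371, minus strand: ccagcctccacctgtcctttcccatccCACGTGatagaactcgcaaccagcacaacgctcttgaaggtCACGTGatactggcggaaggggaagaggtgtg
Sf3a1, chr11:4160254-4160353, plus strand: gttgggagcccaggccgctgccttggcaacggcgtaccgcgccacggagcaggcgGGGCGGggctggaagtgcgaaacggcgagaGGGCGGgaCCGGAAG
Sf3b1, chr1:55027479-55027578, minus strand: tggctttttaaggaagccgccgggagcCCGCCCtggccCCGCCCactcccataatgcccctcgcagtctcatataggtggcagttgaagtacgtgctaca
The 4 matches before Srsf5 are ETS cores and GC boxes, the 4 before Hnrnpa1 are 3 CCAAT boxes and a GC box, and the 2 before Snrpa are both E-boxes. A match is a string of letters and no measure of binding.

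Over windows from 250 bases before to 50 after the start, promoters of 47 of the 54 members could be matched by symbol. The ETS core was found in 16 of these 47 (34.0%), against 12.3% of the promoters of 16522 protein-coding genes. It stood in 6 of the 7 matched SF3 promoters, in 4 of 11 SR protein promoters, in 4 of 10 core snRNP promoters and in 2 of 17 hnRNP promoters. The GC box was found in 68.1% of member promoters and 48.0% of all, and in 10 of the 11 SR protein promoters. The E-box was found in 10.6% of member promoters and 8.11% of all, the CCAAT box in 46.8% and 38.7%, the NRF1 motif in 14.9% and 6.85%, the cAMP response element in 4.26% and 2.43%, and the TATA box in 12.8% and 12.9%. Of the 5 member promoters with an E-box, 4 belong to hnRNPs and the other to Snrpa.

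The SR proteins were compared as a class first. The summed level of the 11 genes was 3706 CPM in freshly isolated cells, 2919 CPM in high glucose, 2923 CPM in low glucose and 3023 CPM in galactose. In high glucose the sum was 0.788 times that of freshly isolated cells (interval 0.733 to 0.847), and 2.42 times per spike-in count. Row pools ranged from 3257 to 4191 CPM in freshly isolated cells and from 2736 to 3117 CPM in high glucose, so they did not overlap. The median log2 ratio of the 9 measured SR proteins was −0.33; of these, 0 were called higher and 1, Srsf5, lower (11.1%, where 16.1% of all measured genes were called lower). The intervals of 5 of the 9 lay below 1, as did those of 663 of the 3964 measured genes.

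Srsf5, an SR protein known as an early gene of the growth response in liver, stood at 398 CPM in freshly isolated cells, 179 CPM in high glucose, 177 CPM in low glucose and 170 CPM in galactose. All 3 cultures lay below the freshly isolated cells and close to each other. The ratio of high glucose to freshly isolated cells was 0.450 (0.352 to 0.578). Row pools were at 332 to 556 CPM in freshly isolated cells and 132 to 203 CPM in high glucose. Per 1000 spike-in counts, Srsf5 had 7.81, 10.8, 8.92 and 8.82 counts in the same order of pools.

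Srsf2, which binds exonic enhancers and acts in both constitutive and alternative splicing, stood at 912, 651, 750 and 794 CPM in the same order. It was highest in freshly isolated cells, but its row pools overlapped narrowly (792 to 998 CPM against 566 to 795 CPM in high glucose). The ratio was 0.714 (0.616 to 0.830), inside the 1.5-fold limit. Srsf7, which also links splicing to mRNA export, stood at 345, 238, 241 and 243 CPM, with a ratio of 0.689 (0.540 to 0.885) and overlapping row pools.

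Srsf3, one of the smallest SR proteins and an mRNA export adaptor, stood at 521, 515, 451 and 475 CPM, and Srsf11 at 489, 445, 423 and 416 CPM. Both had intervals that held 1 in this comparison (0.819 to 1.20 and 0.748 to 1.11). Srsf1, the founding SR protein, stood at 475, 377, 429 and 422 CPM, and Srsf6 at 352, 269, 209 and 268 CPM. Their ratios were 0.794 (0.649 to 0.977) and 0.765 (0.603 to 0.976). Srsf4 lay between 89.4 and 100.2 CPM in all 4 pools. Srsf9 stood at 81.0, 80.0, 102 and 91.9 CPM, and the interval of its ratio (0.610 to 1.66) was too wide to show a change of 1.5-fold. Srsf10 was below the measured limit at 35.2, 68.7, 51.3 and 43.2 CPM, and Srsf12 had 2 counts or fewer in every pool.

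Of the 18 measured hnRNPs, 2 were called higher in high glucose (Hnrnpa1 and Hnrnpa3), 2 lower (Hnrnpa2b1 and Hnrnph3) and 14 neither, with a median log2 ratio of 0.11. The share called was 11.1% in each direction, against 38.0% higher and 16.1% lower of all measured genes. The Hnrnpa3 call ended, at a ratio of 1.31, when genes sharing its 3′ end were added. The summed level of the hnRNPs was 8458, 7800, 8077 and 8504 CPM in freshly isolated cells, high glucose, low glucose and galactose. High glucose stood at 0.922 times freshly isolated cells (0.880 to 0.966) by total counts and 2.83 times per spike-in count. Row pools overlapped, at 8000 to 9238 CPM against 7347 to 8406 CPM. The sum leaves out genes that share 3′ ends with its members. Those of Hnrnpa3 stood at 1221 CPM in freshly isolated cells and 1552 CPM in high glucose, and those of Hnrnpf at 239 and 498 CPM. The summed ratio of 0.922 thus depends on where shared reads were counted, and a sum with these genes was not taken.

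Hnrnpa1 and Hnrnpa2b1, which encode closely related A/B-type hnRNPs that often repress exons, lay on opposite sides. Hnrnpa1 stood at 183 CPM in freshly isolated cells, 393 CPM in high glucose, 324 CPM in low glucose and 391 CPM in galactose, with a ratio of 2.15 (1.60 to 2.93) in high glucose. Its row pools overlapped slightly, at 92.1 to 293 CPM against 283 to 533 CPM. Hnrnpa2b1 stood at 1401, 760, 912 and 961 CPM, with a ratio of 0.543 (0.479 to 0.616). Its freshly isolated row pools, 1221 to 1769 CPM, all lay above those of high glucose, 632 to 900.3 CPM. Per 1000 spike-in counts, Hnrnpa1 had 3.59, 23.7, 16.3 and 20.3 counts and Hnrnpa2b1 had 27.5, 45.8, 46.0 and 49.9. On that scale both genes were lowest in freshly isolated cells.

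Hnrnph3 and Hnrnph1 belong to the H/F group, which binds runs of G. Hnrnph3 stood at 109, 55.2, 39.2 and 53.1 CPM, with a ratio of 0.506 (0.316 to 0.821) in high glucose and overlapping row pools. Hnrnph1 stood at 602, 441, 330 and 350 CPM. Its ratio of 0.732 (0.610 to 0.881) did not reach 1.5-fold, but its row pools did not overlap, at 566 to 648 CPM against 395 to 556 CPM. Hnrnph2, at 84.5, 81.1, 70.9 and 62.9 CPM, had an interval that held 1 (0.598 to 1.59).

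Hnrnpc, which binds runs of U and represses cryptic exons, stood at 1436, 1024, 1357 and 1418 CPM. High glucose was the lowest of its 4 pools and the other three were alike. The ratio of high glucose to freshly isolated cells was 0.713 (0.634 to 0.803). Row pools were at 1000 to 1980 CPM in freshly isolated cells and 888 to 1414 CPM in high glucose. Hnrnpab stood at 933, 1043, 1179 and 1212 CPM, and Hnrnpk, which binds runs of C, at 718, 833, 743 and 789 CPM. Both intervals held 1 (0.975 to 1.29 and 0.992 to 1.36). With genes sharing the 3′ end of Hnrnpk added, its ratio was 1.18 and the interval, 1.01 to 1.38, left out 1.

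Of the remaining measured hnRNPs, Hnrnpa3 stood at 222, 337, 334 and 361 CPM with a ratio of 1.52 (1.15 to 2.03), at the edge of the limit. Hnrnpdl stood at 542, 427, 468 and 488 CPM with a ratio of 0.788 (0.651 to 0.956). Hnrnpd, Hnrnpm, Hnrnpu, Hnrnpa0, Hnrnpll, Hnrnpul1, Hnrnpr and Hnrnpul2 had ratios from 0.715 (Hnrnpll) to 1.43 (Hnrnpr), all with intervals that held 1. For the least abundant of them, Hnrnpul2 (0.667 to 2.28), the interval spans changes of 1.5-fold either way. Hnrnpf, the remaining hnRNP, had 1 count over all 4 pools.

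The core snRNP proteins were as a class higher in high glucose on every scale used. The summed level of the 12 genes was 581 CPM in freshly isolated cells, 993 CPM in high glucose, 1191 CPM in low glucose and 1269 CPM in galactose. The ratio of high glucose to freshly isolated cells was 1.71 (1.45 to 2.03) by total counts, 1.43 with TMM factors, 1.40 with median-of-ratios factors and 5.24 per spike-in count. Row pools did not overlap, with a highest of 665 CPM in freshly isolated cells and a lowest of 836 CPM in high glucose. Of the 7 measured members 5 were called higher (71.4%, against 38.0% of all measured genes) and 0 lower, with a median log2 ratio of 1.06. Of these 5, Snrpd1, Snrpb2, Snrpa1 and Snrpe stood at 38.7, 31.7, 42.2 and 31.7 CPM in freshly isolated cells. They passed the measured limit through their level in culture, which favours the called share and the median.

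**Figure D3:**
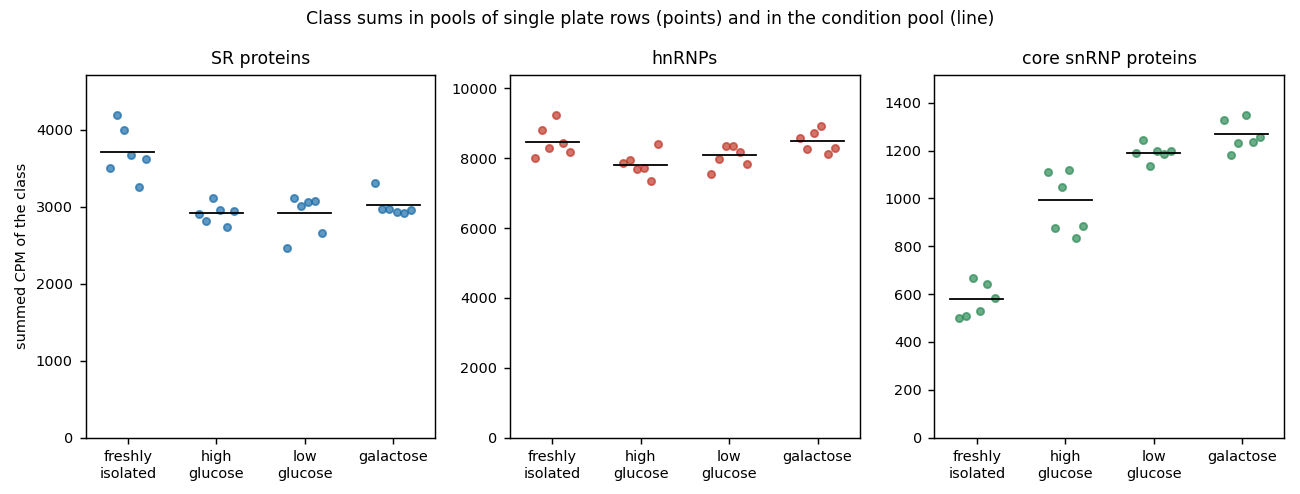
Summed CPM of all SR proteins, hnRNPs and core snRNP proteins in pools of single plate rows (points, 6 per condition, in plate order) and in the condition pool (line). The freshly isolated points lie above the high glucose points for the SR proteins (3257 to 4191 against 2736 to 3117), below them for the core snRNP proteins (at most 665 against at least 836), and overlap them for the hnRNPs; per spike-in count the high glucose pool is the higher one in all 3 classes.

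Snrpb, which encodes the SmB proteins of the Sm ring, stood at 246, 333, 348 and 397 CPM, with a ratio of 1.35 (1.04 to 1.78), under the limit. Snrpa encodes the U1 snRNP protein that binds a loop of U1 RNA. It stood at 63.4, 142, 150 and 171 CPM with a ratio of 2.24 (1.36 to 3.90). Its row pools of 46.1 to 106 CPM all lay below those of high glucose, 117 to 186 CPM. The freshly isolated pool held the lowest level of both genes.

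Snrpb2 and Snrpa1 encode the partners that bind U2 RNA together. Snrpb2 stood at 31.7, 90.1, 117 and 99.7 CPM with a ratio of 2.85 (1.43 to 6.45), from 9 counts in the freshly isolated pool. Snrpa1 stood at 42.2, 89.0, 85.9 and 75.2 CPM with a ratio of 2.11 (1.14 to 4.25). Both were lowest in freshly isolated cells, with row pools that overlapped.

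The Sm ring genes Snrpd1 and Snrpe stood at 38.7, 80.0, 148 and 170 CPM and at 31.7, 67.6, 91.7 and 79.1 CPM. Their ratios were 2.07 (1.09 to 4.32) and 2.13 (1.05 to 4.89), with overlapping row pools and 11 and 9 counts in the freshly isolated pool. Snrpf, also of the ring, stood at 59.8, 75.5, 114 and 122 CPM with a ratio of 1.26 (0.732 to 2.29). The 5 core snRNP genes below the measured limit were Snrpd3 (28.2, 34.9, 42.1 and 53.5 CPM), Snrpd2 (21.1, 29.3, 47.9 and 46.2 CPM), Snrpc (14.1, 45.1, 35.2 and 44.7 CPM), Snrpn (1, 4, 14 and 16 counts) and Snrpg (0, 1, 4 and 4 counts).

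The SF3 subunits diverged, with calls in both directions within SF3B. Of 6 measured, 3 were called higher in high glucose (Sf3b2, Sf3a1 and Sf3b6) and 1 lower (Sf3b1), with a median log2 ratio of 0.79; of all measured genes 38.0% were called higher and 16.1% lower. Their summed level, which Sf3b1 dominates, was 1943, 1886, 1935 and 2079 CPM, and its ratio of 0.971 (0.881 to 1.07) differed in sign from the median. Sf3a1 and Sf3b6 passed the measured limit through their level in culture, at 49.3 and 14.1 CPM in freshly isolated cells.

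Sf3b1 encodes the scaffold of SF3B that closes around the branch point. It stood at 1221, 797, 784 and 837 CPM, with a ratio of 0.652 (0.573 to 0.744) and row pools of 1083 to 1296 CPM that all lay above the 730 to 924 CPM of high glucose. Sf3b2, a further SF3B subunit, stood at 88.0, 235, 182 and 197 CPM with a ratio of 2.68 (1.76 to 4.23), and its row pools of 52.5 to 138 CPM and 115 to 317 CPM overlapped. Per 1000 spike-in counts Sf3b1 had 24.0, 48.0, 39.5 and 43.4 counts, so it too was lowest in freshly isolated cells on that scale.

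Sf3a1, the SF3A subunit that contacts U1, stood at 49.3, 117, 94.0 and 98.2 CPM with a ratio of 2.38 (1.36 to 4.50). Its row pools did not overlap, at 19.5 to 69.1 CPM against 76.0 to 169 CPM. Sf3b6, which encodes the p14 protein next to the branch point adenosine, stood at 14.1, 56.3, 86.5 and 100.2 CPM. Its log2 ratio of 1.93 (linear bounds 1.47 and 15.3) rested on 4 counts in the freshly isolated pool, and its row pools overlapped.

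Sf3b4, which binds upstream of the branch point, stood at 366, 389, 499 and 537 CPM, and Sf3a2 at 187, 238, 209 and 234 CPM. Both intervals held 1 (0.850 to 1.34 and 0.939 to 1.76). Below the limit, Sf3b5 stood at 14.1, 40.6, 67.5 and 62.9 CPM, Sf3b3 had 1, 7, 9 and 14 counts, and Sf3a3 had 0, 5, 15 and 12 counts. The counts of Sf3a3 in the freshly isolated pool allow up to 3 counts by the limit used for a count of 0, which covers the level in high glucose. U2af2, the large U2AF subunit that binds the polypyrimidine tract, stood at 510, 416, 534 and 562 CPM. Its ratio was 0.815 (0.670 to 0.994). U2af1, the small subunit that reads the AG at the end of the intron, stood at 137, 170, 203 and 196 CPM. Its ratio was 1.24 (0.867 to 1.81). U2af1l4, a relative of U2af1, was below the limit at 21.1, 24.8, 28.8 and 38.3 CPM.

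Calls of higher genes depended on the level of the gene, and the classes differ in level. Among all measured genes with a mean of 50 to 100 CPM the median log2 ratio was 0.40, and 42.7% were called higher. Among genes of 500 CPM or more it was 0.21, and 29.5% were called higher. Within the 50 to 100 CPM band the 4 core snRNP proteins had a median of 1.06, the 3 hnRNPs −0.06 and the 2 SR proteins 0.00. The bands use the mean over the 4 pools and do not match genes by their level in freshly isolated cells. Snrpb2, Snrpa1 and Snrpe reached this band through their level in culture, at 31.7, 42.2 and 31.7 CPM in freshly isolated cells. Within 200 to 500 CPM the median of all genes was 0.25 and that of the 6 SR proteins there was −0.36.

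The other genes of the pathway were taken from 7 lists and are described for the same comparison, in which 38.0% of all measured genes were called higher and 16.1% lower, with a median log2 ratio of 0.33. The snRNP-specific and tri-snRNP proteins, some of which drive rearrangements of the spliceosome, had 8 higher and 1 lower of 21 measured, with a median log2 ratio of 0.54. The 38.1% called higher is the share of genes in general. Sart1, a tri-snRNP protein, stood at 38.7, 136, 99.8 and 95.3 CPM, and Eftud2, the U5 GTPase, at 35.2, 122, 114 and 113 CPM. Activation and step factors had 9 higher (56.3%) and 0 lower of 16, with a median of 0.80. Among them Plrg1, of the Prp19 complex, stood at 42.2, 131, 115 and 113 CPM with row pools that did not overlap, and Bcas2, of the same complex, at 35.2, 95.8, 82.5 and 95.3 CPM. LSM proteins, most of which form the ring of U6 or its cytoplasmic relative, had 3 higher and 0 lower of only 4 measured, with a median of 1.00. Lsm4 stood at 28.2, 74.4, 103 and 103 CPM, and Lsm8 at 17.6, 59.7, 91.7 and 85.5 CPM.

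The exon junction complex, deposited on mRNA at spliced junctions, had 4 higher (66.7%, against 38.0% of all measured genes) and 0 lower of 6, with a median of 0.98. Its helicase Eif4a3 stood at 88.0, 221, 154 and 168 CPM, and its core subunit Rbm8a at 31.7, 83.4, 118 and 130 CPM. The machinery that loads Sm rings onto snRNA had 3 higher and 0 lower of 6, with a median of 0.75, where 38.0% of all measured genes were higher and 16.1% lower. In it Prmt5, which methylates Sm proteins, stood at 52.8, 217, 149 and 167 CPM with a ratio of 4.12 (2.44 to 7.50), and Smn1, of the SMN complex, at 31.7, 104, 62.9 and 91.9 CPM. Row pools of freshly isolated and high glucose cells did not overlap for Prmt5 and Smn1. Other RNA-binding splicing regulators had 5 higher (29.4%, against 38.0% of all measured genes) and 4 lower (23.5%, against 16.1%) of 17, with a median of 0.02. The higher ones included Khdrbs1 (Sam68) at 31.7, 81.1, 44.4 and 46.7 CPM and Nono at 77.4, 179, 133 and 118 CPM. The 4 lower were Ptbp3, Mbnl2, Rbfox2 and Sfpq. Of these Sfpq, the partner of Nono, stood at 651, 367, 368 and 420.0 CPM, with freshly isolated and high glucose row pools that did not overlap.

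SR-related proteins and SR kinases lay on the same side as the SR proteins by total counts, with 2 higher (Clk3 and Srpk1) and 4 lower (Tra2a, Srrm2, Clk1 and Clk4) of 15 and a median log2 ratio of −0.30, which was 1.32 per spike-in count. These are 13.3% and 26.7% of the list, against 38.0% and 16.1% of all measured genes. Clk1, a kinase that phosphorylates SR proteins and whose own transcript is stored with introns retained, stood at 458 CPM in freshly isolated cells, 119 CPM in high glucose, 69.2 CPM in low glucose and 60.4 CPM in galactose. High glucose over freshly isolated cells gave 0.261 (0.200 to 0.340). Srrm2, a large SR-related scaffold of nuclear speckles, stood at 584, 244, 232 and 211 CPM with a ratio of 0.418 (0.340 to 0.515). For both genes all freshly isolated row pools lay above all those of high glucose.

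**Figure D4:**
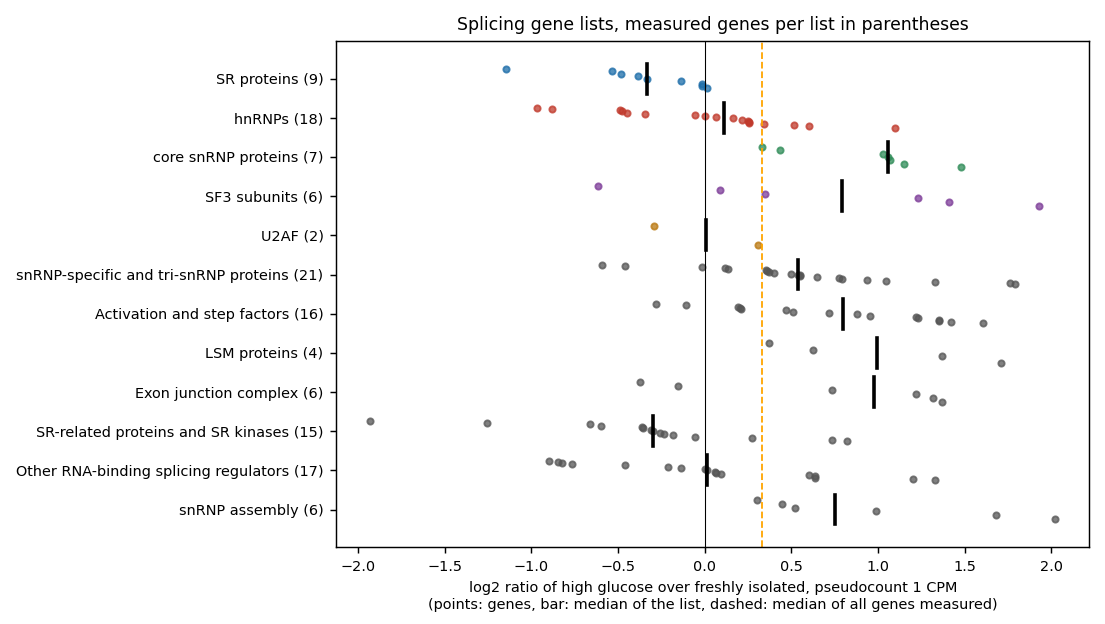
log2 ratio of high glucose over freshly isolated pools (1 CPM added) for each measured gene (points) of the 5 member classes and 7 further splicing lists, with the median of each list (bar) and of all measured genes (dashed line, 0.33). By total counts the medians of SR proteins (−0.33) and of SR-related proteins and kinases (−0.30) lie below 0. Those of core snRNP (1.06), LSM (1.00) and exon junction (0.98) proteins lie highest. Per spike-in count all 12 medians are above 0. Genes could pass the measured limit through their level in culture, which favours higher medians.

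The second comparison asks what galactose in place of low glucose does, with both groups on plate 2 and the deepest pools. Of the 42 measured members 0 were called higher and 0 lower in galactose, where 0.454% of all measured genes were called higher and 0.605% lower. Member ratios ranged from 0.852 (Snrpb2) to 1.35 (Hnrnph3). No member had row pools that did not overlap, where 0.0757% of all measured genes were higher and 0.126% lower by that rule. The 7 further lists also had 0 genes called in either direction.

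The summed ratios of galactose to low glucose were 1.03 (0.996 to 1.07) for the SR proteins, 1.05 (1.03 to 1.08) for the hnRNPs, 1.07 (1.01 to 1.13) for the core snRNP proteins, 1.07 (1.03 to 1.12) for the SF3 subunits and 1.04 (0.968 to 1.12) for U2AF. The row pools of all 5 classes overlapped. Counting intervals left out 1 for 4 of the 42 measured members. Over all 3964 measured genes, 252 had an interval above 1 and 258 below. Srsf6 had a ratio of 1.28 (1.12 to 1.47), Hnrnpa1 1.21 (1.08 to 1.35), Snrpb 1.14 (1.03 to 1.27) and Hnrnpm 1.10 (1.01 to 1.20), all higher in galactose.

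**Figure D5:**
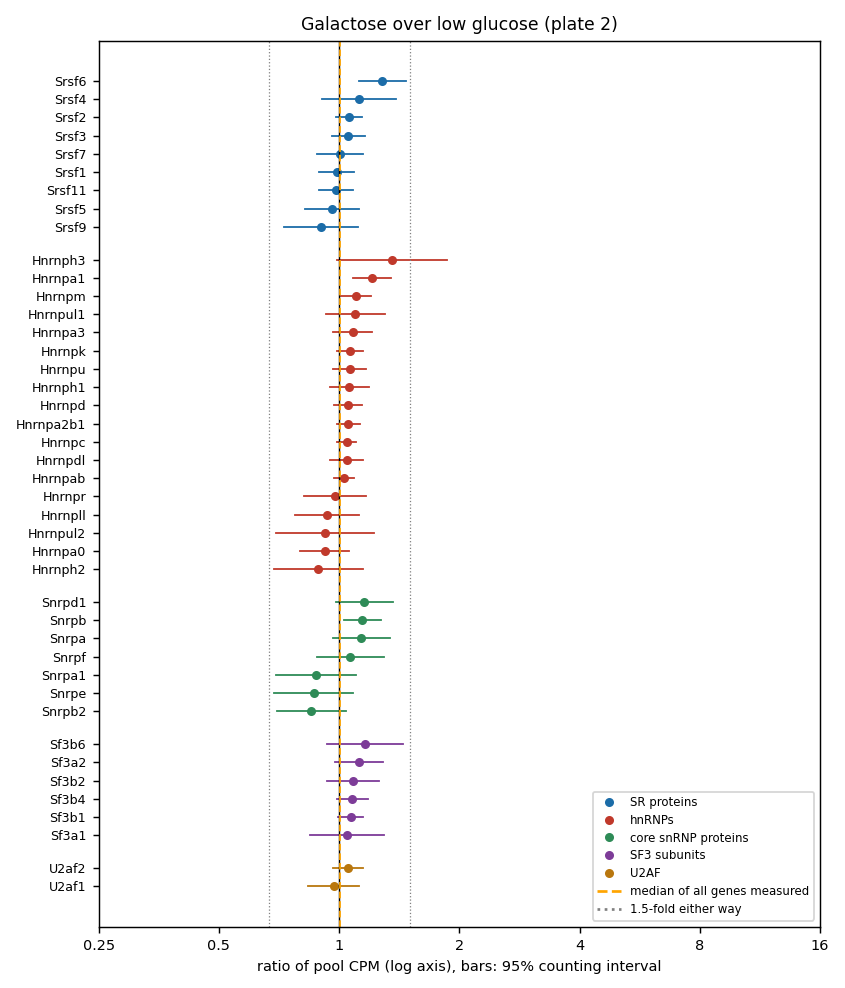
Ratio of pool CPM in galactose over low glucose (log axis) for the 42 measured members, with bars for the exact 95% counting interval; the dashed line is the median of all measured genes and dotted lines mark 1.5-fold. Every point lies between 0.852 and 1.35, inside the dotted lines.

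The cultures of plate 2 were also set beside high glucose on plate 1. Plate and medium cannot be told apart in these ratios, and both share the high glucose pool. In low glucose 3 of 42 members were called higher and 0 lower, where 8.80% and 9.56% of all measured genes were. In galactose 3 were higher and 0 lower, where 10.9% and 11.5% of all were. These were Snrpd1, Snrpf and Sf3b6 in each. Snrpd1 had ratios of 1.85 (1.41 to 2.44) for low glucose and 2.13 (1.65 to 2.79) for galactose. Snrpf had 1.51 (1.14 to 2.03) and 1.61 (1.23 to 2.15), and Sf3b6 had 1.54 (1.11 to 2.16) and 1.78 (1.30 to 2.48). Row pools did not overlap for Snrpf in low glucose, where 4.41% of all genes were higher and 3.30% lower by that rule, nor for Snrpd1 and Snrpf in galactose, where 5.85% were higher and 5.42% lower.

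The core snRNP sum was 1.20 times (1.11 to 1.30) that of high glucose in low glucose and 1.28 times (1.18 to 1.38) in galactose by total counts, and 1.00 and 1.10 times per spike-in count. Its row pools in both cultures of plate 2, at 1137 to 1245 and 1183 to 1349 CPM, lay above the 836 to 1119 CPM of high glucose. The SR protein sum was 1.00 (0.955 to 1.05) and 1.04 (0.989 to 1.08) times that of high glucose, and 0.838 and 0.892 times per spike-in count. The hnRNP sum was 1.04 (1.01 to 1.07) and 1.09 (1.06 to 1.12) times, and 0.866 and 0.939 times per spike-in count. Among single hnRNPs, Hnrnpc was at 1.32 (1.23 to 1.43) and 1.38 (1.28 to 1.49), and Hnrnpu, which binds chromatin-associated RNA, at 0.715 (0.641 to 0.797) and 0.758 (0.683 to 0.842), both with overlapping row pools.

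Class shares were also taken cell by cell. The SR proteins took a median of 0.364% of a cell's gene counts in freshly isolated cells and 0.291%, 0.298% and 0.296% in the 3 cultures. For the core snRNP proteins the medians were 0.0457%, 0.0911%, 0.116% and 0.125%. Cells differed in depth, with medians of 2536, 6747, 13371 and 14496 gene counts, and at 2536 counts the freshly isolated median is close to the worth of 1 count. The quartiles of the SR share, 0.268% to 0.470% for freshly isolated and 0.230% to 0.392% for high glucose cells, overlapped widely. The hnRNP medians were 0.876%, 0.792%, 0.825% and 0.849%. Cells of a plate share its processing, so their spread is not an error of the condition.

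Shares of cells with a count were compared after every cell was thinned to 1000 gene counts, which left out 1 high glucose cell. Hnrnpa1 was seen in 13.7% of freshly isolated cells (exact interval 7.71% to 22.0%), 32.1% of high glucose cells (23.6% to 41.6%), and 25.8% and 33.9% of the cells with low glucose and galactose. Unthinned, the shares were 36.3%, 78.8%, 85.8% and 88.4%. Snrpa was seen in 5.88% (2.19% to 12.4%), 14.3% (8.39% to 22.2%), 15.0% and 18.2% of thinned cells (17.6%, 60.2%, 78.3% and 83.5% unthinned). Hnrnpa2b1 was seen in 71.6% (61.8% to 80.1%), 65 of 112 cells (48.3% to 67.3%), 64.2% and 63.6% of thinned cells. Srsf5 was seen in 28.4% (19.9% to 38.2%) of thinned freshly isolated cells and 13.4% (7.69% to 21.1%) of those in high glucose, and in 60.8% and 66.4% unthinned. In the thinned cells the order of freshly isolated and high glucose cells was that of the pools for all of these genes. The thinned counts are drawn from the same counts as the pools, so this order is no separate support.

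Because reads came from 3′ ends, the last 200 bases of the members' transcripts were compared with all other genes. Of the 54 members, 42 shared no run of 50 bases there with another gene, among them all 11 SR proteins, all 9 SF3 subunits and, of the genes named first above, Hnrnpa1 and Hnrnpa2b1. Hnrnpa3 shared 31.9% of its runs with 31 other genes, of which 26 had counts in the tables, 5742 in all beside 1675 of its own. With those copies added its ratio of high glucose to freshly isolated cells was 1.31 (1.17 to 1.46), which is below the limit for a call. Snrpa shared 17.9%, Snrpe 8.68% and Snrpd1 0.883%, and with their copies added the ratios were 2.62 (1.66 to 4.34), 2.47 (1.41 to 4.67) and 2.31 (1.31 to 4.37). U2af1 shared 57.0% of its runs, and with copies its ratio was 1.36 (1.04 to 1.78). Hnrnpk shared 35.7%, and with copies its ratio was 1.18 (1.01 to 1.38). U2af1l4 shared 89.1% and Hnrnpc 13.9%, with 2 and 110 counts on the other genes.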

How the data were processed

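The authors deposited raw counts per gene and well for 2 plates, per the labels made with a modified CEL-Seq2 protocol, with no normalization: the values are whole numbers whose totals differ between wells. A well sheet gave the condition of 457 wells. The submitters' processing notes name edgeR. UMI collapsing, aligner and genome build: not given in the sources used here. Barcodes do not mark conditions by themselves, since 200 of 257 were used on both plates. Wells with at least 500 gene counts and 250 genes were kept (456; the one dropped had 8 counts), and no doublet caller was run. Symbols from GENCODE M21 covered 99.6% of identifiers, and 3 pseudogene rows (373 counts, beside 74703 of the members) were left out.

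Counts were summed per condition and divided by total gene counts (CPM). Ratios have exact conditional Clopper-Pearson intervals, and shares of cells exact binomial ones. PCR copies and free RNA are not covered by them. Genes with a mean of at least 50 CPM were measured, and a ratio of 1.5 either way was a call. Medians of log2 ratios used 1 CPM as pseudocount. The calculation was checked on simulated counts.

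Named with values were, per class, the 4 members with the highest mean CPM, the 3 with the largest ratio in high glucose over freshly isolated cells and the 2 in galactose over low glucose, and up to 2 genes of each further list. The other members, the lower regulators, the stress genes and the 6 promoters were chosen after their values were seen. The members and lists were chosen with earlier results of these data known. Other scalings (TMM with edgeR 4.0.16, median-of-ratios, spike-ins, no mitochondrial genes), well filters, gene minimums, calls and thinning were tried; leaving out plate rows and row overlap were added after seeing the data. Python 3.11.15, scipy 1.17.1, pandas 2.3.3 and R 4.3.3 were used. Proteins of the members were not analysed here.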

Additional observations from a re-analysis of the deposited data

How the results depend on the processing

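For high glucose over freshly isolated cells, spike-in scaling called 41 members higher and 0 lower and turned the summed ratios of SR proteins to 2.42, of hnRNPs to 2.83 and of all members to 2.84, with 5.24 for core snRNP proteins. TMM factors gave 12 lower and sums of 0.661, 0.774 and 1.43 for SR proteins, hnRNPs and core snRNP proteins, and median-of-ratios factors 12 lower and 0.645, 0.755 and 1.40. A call at a ratio of 2 left 1 lower, and non-overlap of plate rows 2 higher. For galactose over low glucose, thinning called 3 higher and 4 lower with an SR sum of 0.986, equal weight per well called 1 higher, spike-ins gave an hnRNP sum of 1.08, and leaving out each plate row gave 0 to 1 higher (1 without row F of low glucose). For low over high glucose, spike-ins called 1 higher and 5 lower (hnRNP sum 0.866, all members 0.877), thinning 5 and 1, a minimum of 10 CPM 5 higher, no minimum 8 and 1, a ratio of 2 called 0 higher, rows 1 higher, and equal weight 1 lower. For galactose over high glucose, thinning called 6 higher and 2 lower, a minimum of 10 CPM 7 and 1, no minimum 9 and 1, a ratio of 2 called 1 higher, and spike-ins 1 lower (hnRNP sum 0.939, all members 0.950). The cause was not tested, except that thinning and gene minimums change the counts or genes by construction. The share of all genes called was taken only for the main setting and for the overlap of plate rows. Under the alternatives, 285 values of the called counts and of the summed ratios of these 3 classes stayed within 1.5 times or within the counting interval, 37 moved and 2 changed direction, all given above or within the range over plate rows; among the remaining values the tally was 344, 143 and 5. No paired analysis was possible because each condition is 1 pool of wells on 1 plate. Depth limits the freshly isolated pool most, where 1 count is worth 3.52 CPM.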

Other observations

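Hnrnpf encodes an H/F-group hnRNP. The gene had 1 count over all pools. It shares 55.2% of the 50-base runs at its 3′ end with 7 other genes, of which 5 had counts, 1695 in all. Their summed level was 239 CPM in freshly isolated cells, 498 CPM in high glucose, 323 CPM in low glucose and 307 CPM in galactose. The ratio of high glucose to freshly isolated cells with the copies was 2.08 (1.61 to 2.73), and that of galactose to low glucose was 0.949 (0.846 to 1.07). These counts cannot be assigned to Hnrnpf or to its copies, and they are in no count of members given for the comparisons.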
